A study of Homo sapiens with 4 samples.

Results

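The cytosolic and mitochondrial heat shock proteins and chaperonins described here are 46 genes, taken by symbol from the platform annotation and sorted into the HSP70, HSP90, small heat shock protein, mitochondrial, TRiC and prefoldin classes with their cochaperones and the heat shock factors. They were set among 19775 genes that had a probe set of their own. Of the 46 members, 38 were tested, and each was represented by its brightest probe set. HSPB8 had only probe sets below the brightness minimum. For HSPA1A, HSPA1B, HSPA8, TCP1 and PFDN6 only probe sets that also name other genes were found. AHSA1 and HSF2 were not analysed here.

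RNA from MCF10A, an immortal but non-tumorigenic line of human breast epithelium, was hybridised to 4 Affymetrix U133 Plus 2.0 arrays. On 2 arrays the cells carried short hairpin RNAs against CBL and CBLB, E3 ubiquitin ligases that act on activated receptor tyrosine kinases, and on the other 2 a control hairpin. All cells were grown in DFCI-1 medium and harvested under normal growth, so no heat or drug was applied to either group. Whether duplicates were separate cultures is not stated in the labels. All p-values therefore rest on the spread among the arrays at hand, part or all of which may be technical. In such bulk RNA, fewer cells of a type and less RNA per cell cannot be told apart.

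CBL had intensities of 31.1 and 29.0 on the arrays labelled double knockdown, against 125.9 and 84.4 on the control arrays (log2 change -1.37 ± 0.15 SE, adjusted p = 0.00138). CBLB read 94.8 and 99.5 there, against 64.3 and 70.05 in the control (log2 change 0.45 ± 0.09 SE, adjusted p = 0.0148). The CBLB transcript went against its label, although it was no longer called when double knockdown replicate 1 (adjusted p = 0.0867) or 2 (0.133) was left out. Every direction below is that of the arrays labelled double knockdown against the control arrays. The mammary epithelial markers KRT5, KRT14, KRT18, CDH1, LAMB3 and EGFR were all bright, from 414 to 14078, and their summed intensity was 22072 and 21011 in the double knockdown against 30091 and 29148 in the control. These markers split: KRT14 (4710 and 4266 in the double knockdown against 13558 and 14078 in the control) and KRT5 were lower, KRT18 (5171 and 5571 against 3538 and 3893 in the control) and LAMB3 were higher, and CDH1 and EGFR overlapped. Fibroblast markers summed to 239.3 and 239.5 in the double knockdown against 311 and 318 in the control, with 3 of 6 above the brightness minimum and COL3A1, PDGFRB and LUM below it. Most of that gap was DCN, at 54.9 and 77.9 in the double knockdown against 127.9 and 126.9 in the control. Endothelial markers summed to 65.3 and 67.5 against 73.7 and 71.2 in the control (2 of 5 above), and leukocyte markers to 48.2 and 44.9 against 44.6 and 47.8 in the control (2 of 3 above, PTPRC below). The 3′ to 5′ ratio of the ACTB control probe sets was 1.68 and 1.62 in the double knockdown and 1.62 and 1.57 in the control, and that of GAPDH 1.10 and 1.08 in the double knockdown and 1.09 and 1.07 in the control. The part of these marker differences in the values below was not tested.

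Heat shock proteins keep other proteins folded. HSP70 binds exposed hydrophobic stretches of a client, J-domain proteins (the DNAJ family) bring clients to it and stimulate its ATPase, and nucleotide exchange factors release them, while HSP90 with its own set of cochaperones matures kinases and steroid receptors. TRiC is a ring-shaped chaperonin for actin and tubulin, to which prefoldin hands over nascent chains, and HSPD1 with HSPE1 forms the corresponding chamber of mitochondria. Many of these genes are induced by HSF1, a transcription factor that binds inverted repeats of GAA, called heat shock elements. The study's subject is protein homeostasis, and the comparison below asks how the transcripts of these folding systems outside the endoplasmic reticulum (ER) differed between the arrays.

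Of 38 tested members, HSPA14, HSPH1, DNAJA1, STUB1, STIP1, CHORDC1, FKBP4, CRYAB and VBP1 fell, which is 9 of 38 or 23.7%, against 6.59% of all 12965 genes tested. PFDN2 was the single member that rose, 2.63% of the members against 9.40% of all genes. Of the members that fell, 7 belong to the HSP70 and HSP90 systems with their cochaperones, 1 is a small heat shock protein and 1 a prefoldin subunit, and no mitochondrial or TRiC member passed the test. The median log2 change was -0.19 over the tested members and -0.01 over all genes. Differences were tested with limma on log2(intensity + 16), two-sided, and called at a Benjamini-Hochberg adjusted p under 0.05 over all genes. Folds are of intensity + 16, which understates the change of dim genes. Leaving out double knockdown replicate 1 left 1 member lower and none higher, and leaving out double knockdown replicate 2 left 3 lower and none higher, while the same fits called 677 and 531 genes in all, against 2074 with 4 arrays. CRYAB was the 1 of 10 called members whose call held whichever array was left out. With an intensity-dependent variance prior, 14 members were lower and 2 higher.

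**Figure D1:**
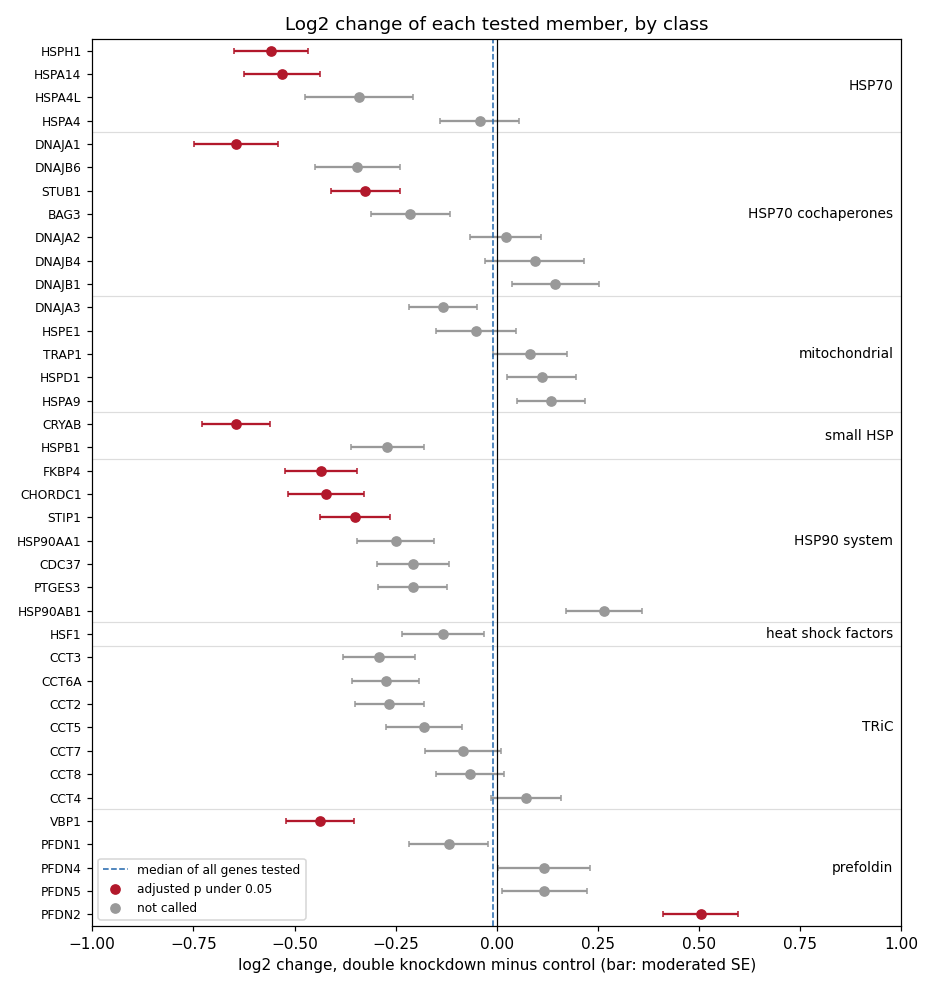
Log2 change (double knockdown minus control, horizontal axis) of the 38 tested members, 1 per line and grouped by class, with moderated standard errors as bars and n = 2 arrays per group. Red points are called at an adjusted p under 0.05, and the dashed line is the median of all genes tested, at -0.01. Of the red points, 9 lie left of 0 and PFDN2 alone lies right of it.

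On the arrays themselves, both double knockdown values lay below both control values for 23 of 38 members, or 60.5%, against 29.3% of all genes. Both lay above for HSP90AB1, HSPA9, HSPD1, CCT4 and PFDN2, or 13.2%, against 28.1%. The members are bright, and each of the 38 averaged at least 100. The 6601 genes at or above that level had a median log2 change of -0.01, with 637 called lower (9.65%) and 804 higher (12.2%). Both double knockdown values lay below both control values for 34.3% of them and above for 31.7%. Among the 21 members at or above 1000 the median was -0.07, against -0.02 over all 1182 genes of that brightness. The 2 groups were apart with the double knockdown below for 47.6% of these members and 39.3% of these genes. It lay above for 23.8% and 30.5%. VBP1 and STUB1 were lower and PFDN2 higher, so 9.52% of these bright members were called lower, close to the 9.48% of all genes at that level. HSPB8, a small heat shock protein that works with BAG3, read 11.7 and 8.68 in the double knockdown and 10.5 and 10.9 in the control.

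**Figure D2:**
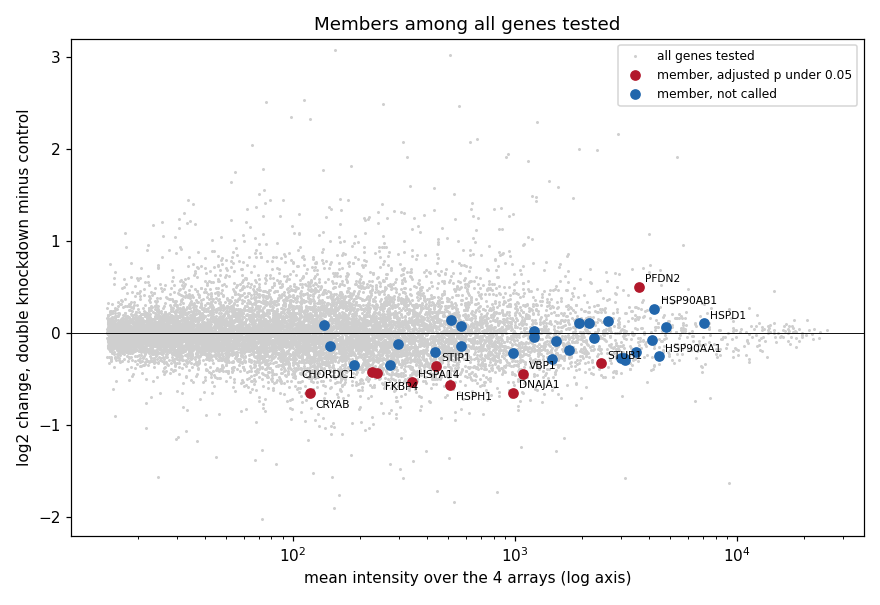
Log2 change (double knockdown minus control, vertical axis) against the mean intensity over the 4 arrays (horizontal log axis) for all 12965 genes tested in grey and for the 38 members in colour. Red members are called at an adjusted p under 0.05. The called members that fell lie between CRYAB at a mean of 119 and STUB1 at 2441, and the brightest member, HSPD1 at 7096, lies near 0.

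Heat shock elements were looked for in RefSeq promoter windows of GRCh38.p14, from 250 bases before to 50 after each annotated start, because the members that HSF1 is known to bind did not all move alike. The motif, in letters, was GAANNTTCNNGAA, which joins 3 alternating units, on either strand. It contains both 2-unit forms, GAANNTTC and TTCNNGAA. It was found in 172 of 35116 windows, or 0.490%, and in 7 of the 56 windows of members. These belong to 7 of the 39 members with a window: HSPA8, HSP90AA1, HSP90AB1, DNAJA1, DNAJB6, CHORDC1 and HSPD1. The 2-unit forms are far commoner, at 6.77% of windows for GAANNTTC and 7.74% for TTCNNGAA. The stretches of 30 bases around an element are shown for 6 of these genes, 5′ to 3′ on the strand of the gene, with the units in capitals.
HSPA8: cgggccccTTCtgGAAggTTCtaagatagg
HSP90AA1: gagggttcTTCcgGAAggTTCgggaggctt
HSP90AB1: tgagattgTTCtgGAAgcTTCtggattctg
DNAJA1: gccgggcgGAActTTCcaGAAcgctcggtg
DNAJB6: agagccgaGAAccTTCgcGAAggtggggcg
CHORDC1: cgaccgGAAaaTTCgcGAAggTTCctGAAa
These lie at chr11:123062170-123062199 on the minus strand for HSPA8, chr14:102087111-102087140 on the minus strand for HSP90AA1, chr6:44247823-44247852 on the plus strand for HSP90AB1, chr9:33025268-33025297 on the plus strand for DNAJA1, chr7:157336865-157336894 on the plus strand for DNAJB6 and chr11:90223086-90223115 on the minus strand for CHORDC1. The stretch shown for DNAJA1 spans the start itself, and CHORDC1 has 5 units in a row. HSP90AA1, HSP90AB1 and HSPD1 have several annotated starts, and the match stands in the window of only 1 of them.

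The 6 tested members with a 3-unit element ran from a log2 change of -0.64 for DNAJA1 to 0.27 for HSP90AB1, with a median of -0.30, and DNAJA1 and CHORDC1 were called lower. The 25 tested members with a window but no such match ran from -0.56 to 0.14, with a median of -0.12 and 3 called lower. Over all genes tested, 6.59% were called lower. In neither set are the 7 members without a window. Among these, CRYAB, HSPA14, FKBP4 and STUB1 were called lower and PFDN2 higher. The difference between the sets was not tested. HSP90AA1 and HSP90AB1, whose printed elements share the same order of units, differed in direction. A match describes letters in a window, and binding was not measured.

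Among the HSP70 proteins, HSPH1 and HSPA14 fell. HSPH1, the HSP110 that exchanges nucleotide on HSP70, had intensities of 402 and 411 in the double knockdown and 576 and 638 in the control (1.47-fold lower, log2 change -0.56 ± 0.09 SE, adjusted p = 0.00709). Its second bright probe set had a log2 change of -0.58. HSPA14, an HSP70 relative that works at the ribosome, read 263 and 291 in the double knockdown and 421 and 392 in the control (1.44-fold lower, log2 change -0.53 ± 0.09 SE, adjusted p = 0.00978). Its 2 dimmer probe sets did not follow, at log2 changes of 0.09 and 0.05, and with the mean of its probe sets it was not called. HSPA14 lost its call without double knockdown replicate 1 (adjusted p = 0.0932), and HSPH1 without double knockdown replicate 1 (0.0628) or 2 (0.0601).

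HSPA4L, another HSP110, read 226 and 251 in the double knockdown and 265 and 352 in the control (log2 change -0.34, adjusted p = 0.128). HSPA4, the HSP110 also called APG-2, read 1201 and 1186 in the double knockdown and 1146 and 1318 in the control, and the groups overlapped. HSPA4 depended on the probe set. Its dimmer probe set 208814_at read 139.7 and 116 in the double knockdown and 227 and 188 in the control (log2 change -0.64, adjusted p = 0.0184 over all 27334 probe sets tested). The other dimmer pair had log2 changes of -0.18 and 0.14. That call needed control replicate 1 (adjusted p = 0.0791 without it) and both double knockdown arrays (0.0911 without replicate 1 and 0.200 without replicate 2).

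The largest differences stood on probe sets that carry the symbols of HSPA1A and HSPA1B together, the stress-inducible HSP70 genes, and so belong to neither gene alone. They are outside the counts above and were tested with all probe sets, of which 5.18% were lower and 7.87% higher, 13.1% in all. Probe set 200799_at read 934 and 905 in the double knockdown and 1906 and 2100 in the control, which is 2.16-fold lower (log2 change -1.11 ± 0.09 SE, adjusted p = 0.000840). Probe set 202581_at read 326 and 335 in the double knockdown and 684 and 651 in the control (log2 change -0.98 ± 0.08 SE, adjusted p = 0.00106). Probe set 200800_s_at, which also names HSPA1L, read 534 and 512 in the double knockdown and 1203 and 1250.3 in the control (log2 change -1.20 ± 0.08 SE, adjusted p = 0.000445). The groups were far apart on all 3 probe sets, and each call held whichever array was left out, with adjusted p up to 0.0481.

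The HSPA1A and HSPA1B windows are printed because the probe sets cannot separate these genes and their upstream sequence is alike as well. Over 299 aligned bases of the windows, 277 were identical, or 92.6%. The 160 bases before each start are shown 5′ to 3′ on the plus strand, at chr6:31815383-31815542 for HSPA1A and chr6:31827578-31827737 for HSPA1B in GRCh38.p14, with the 2-unit element GAANNTTC in capitals.
HSPA1A: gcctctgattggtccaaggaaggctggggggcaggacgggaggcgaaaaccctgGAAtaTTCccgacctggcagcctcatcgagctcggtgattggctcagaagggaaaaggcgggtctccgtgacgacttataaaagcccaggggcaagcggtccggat
HSPA1B: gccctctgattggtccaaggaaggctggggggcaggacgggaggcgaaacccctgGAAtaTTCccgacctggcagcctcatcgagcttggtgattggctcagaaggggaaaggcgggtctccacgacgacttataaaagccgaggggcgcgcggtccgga

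HSPA8 encodes the constitutive HSP70, and its 4 probe sets also carry the symbols of small nucleolar RNAs. The brightest read 6471 and 6449 in the double knockdown and 7429 and 7890 in the control, at a log2 change of -0.24 (adjusted p = 0.106 over all probe sets). The other probe sets of HSPA8 ran from -0.28 to -0.13, and none was called. The inducible pair thus stood beyond the threshold and the constitutive gene did not, and the difference between them was not tested.

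**Figure D3:**
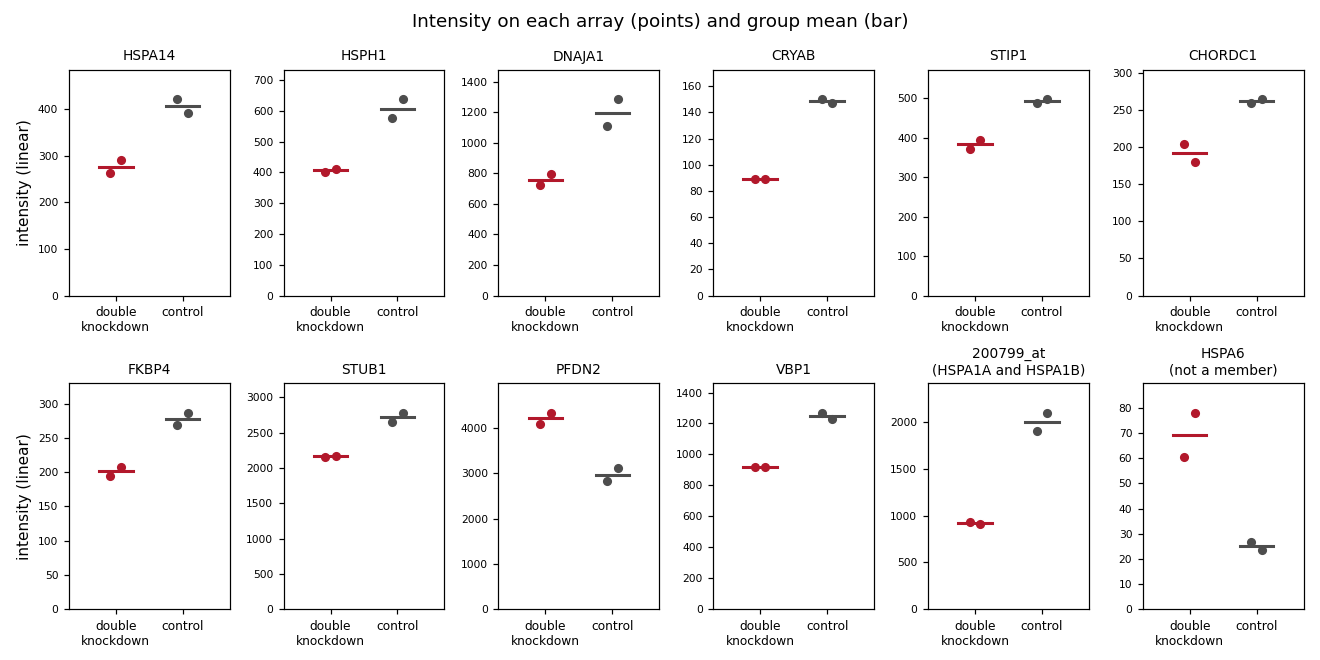
Intensity on each array (points, linear vertical axis from 0) and group mean (bar) for the 10 called members, for probe set 200799_at, which names HSPA1A and HSPA1B, and for HSPA6, with double knockdown on the left and control on the right of each panel (n = 2 each). In every panel the 2 groups are apart, with PFDN2 and HSPA6 higher and the others lower in the double knockdown.

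Of the HSP70 cochaperones, DNAJA1 and STUB1 fell and the other 5 were not called. DNAJA1, a farnesylated J-domain protein, read 726 and 793 in the double knockdown and 1109 and 1286 in the control (1.56-fold lower, log2 change -0.64 ± 0.10 SE, adjusted p = 0.00694). The second DNAJA1 probe set stood at -0.67. STUB1, the ubiquitin ligase CHIP that binds HSP70 and HSP90 and marks their clients, read 2162 and 2168 in the double knockdown and 2650.0 and 2785 in the control (1.25-fold lower, log2 change -0.33 ± 0.08 SE, adjusted p = 0.0383). The remaining pair of STUB1 probe sets had log2 changes of -0.27 and -0.28. DNAJA1 lost its call without double knockdown replicate 1 (adjusted p = 0.0606), and STUB1 whichever array was left out (0.0548 to 0.225).

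DNAJB6, a J-domain protein that holds back aggregation, read 154 and 174 in the double knockdown and 197 and 227 in the control (log2 change -0.34 ± 0.10 SE, adjusted p = 0.0624). Quantile normalization (adjusted p = 0.0497) and a fit blocked on replicate number (0.0298) put DNAJB6 past the threshold. These were 2 of the 9 alternatives that kept all 4 arrays. Without 1 array, its log2 change ran from -0.44 to -0.25. A brighter pair of probe sets that name DNAJB6 together with TMEM135 had log2 changes of -0.25 and -0.13. Neither was called over all probe sets (adjusted p = 0.118 and 0.363). BAG3, a nucleotide exchange factor of selective autophagy, read 963 and 842 in the double knockdown and 1070.1 and 1024 in the control, apart but not called (log2 change -0.21, adjusted p = 0.184). On their brightest probe sets, positive values within the spread of the arrays were found for other J-domain proteins: DNAJB1 at a log2 change of 0.14, DNAJB4 at 0.09 and DNAJA2 at 0.02. DNAJB1, the HSP40 that is usually induced with HSPA1A, read 521 and 555 in the double knockdown and 530.4 and 443 in the control, so its groups overlapped there. A dimmer DNAJB1 probe set read 283 and 317 in the double knockdown and 245 and 259 in the control. Its groups were apart, but it was not called (log2 change 0.24, adjusted p = 0.147 over all probe sets).

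In the HSP90 system, 3 cochaperones fell. FKBP4, an immunophilin of steroid receptor complexes, read 195 and 208 in the double knockdown and 269 and 287 in the control (1.35-fold lower, log2 change -0.43 ± 0.09 SE, adjusted p = 0.0166). CHORDC1, an HSP90-binding protein with zinc-binding CHORD domains, read 204 and 179.8 in the double knockdown and 259.7 and 265 in the control (1.34-fold lower, log2 change -0.42 ± 0.09 SE, adjusted p = 0.0220). STIP1, or HOP, which carries clients between HSP70 and HSP90, read 371 and 395 in the double knockdown and 489 and 498 in the control (1.28-fold lower, log2 change -0.35 ± 0.09 SE, adjusted p = 0.0312). The 2 bright probe sets of FKBP4 and of STIP1 had nearly the same change. FKBP4 lost its call without double knockdown replicate 1 (adjusted p = 0.143) or 2 (0.0920). CHORDC1 (0.0507 to 0.204) and STIP1 (0.0597 to 0.230) lost theirs whichever array was left out.

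PTGES3, the cochaperone p23, and CDC37, which loads kinases onto HSP90, had log2 changes of -0.21 each, with both groups apart and adjusted p of 0.146 and 0.162. The HSP90 genes themselves pointed in opposite directions, and neither was called, although with an intensity-dependent prior HSP90AA1 was called lower (adjusted p = 0.0455) and HSP90AB1 higher (0.0333). HSP90AA1, the inducible isoform, read 4208 and 3865 in the double knockdown and 4578 and 5028 in the control (log2 change -0.25 ± 0.09 SE, adjusted p = 0.118). HSP90AB1, the constitutive isoform, read 4615 and 4630.0 in the double knockdown and 3628 and 4072 in the control (log2 change 0.27 ± 0.09 SE, adjusted p = 0.0953). The groups did not overlap for either gene, and all 3 probe sets of HSP90AB1 had positive values. The difference between the isoforms was not tested.

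HSP90AA1 also depended on the probe set. Its probe set 211969_at read 1384 and 1299.7 in the double knockdown and 2425 and 2291 in the control, which is 1.75-fold lower (log2 change -0.81 ± 0.09 SE, adjusted p = 0.00252 over all probe sets). The other 3 had log2 changes of -0.25, -0.30 and -0.30. Probe set 211969_at needed both double knockdown arrays for its call (adjusted p = 0.0540 without replicate 1 and 0.0837 without replicate 2). With the mean of its probe sets HSP90AA1 was called lower, at a log2 change of -0.41 (adjusted p = 0.0176).

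**Figure D4:**
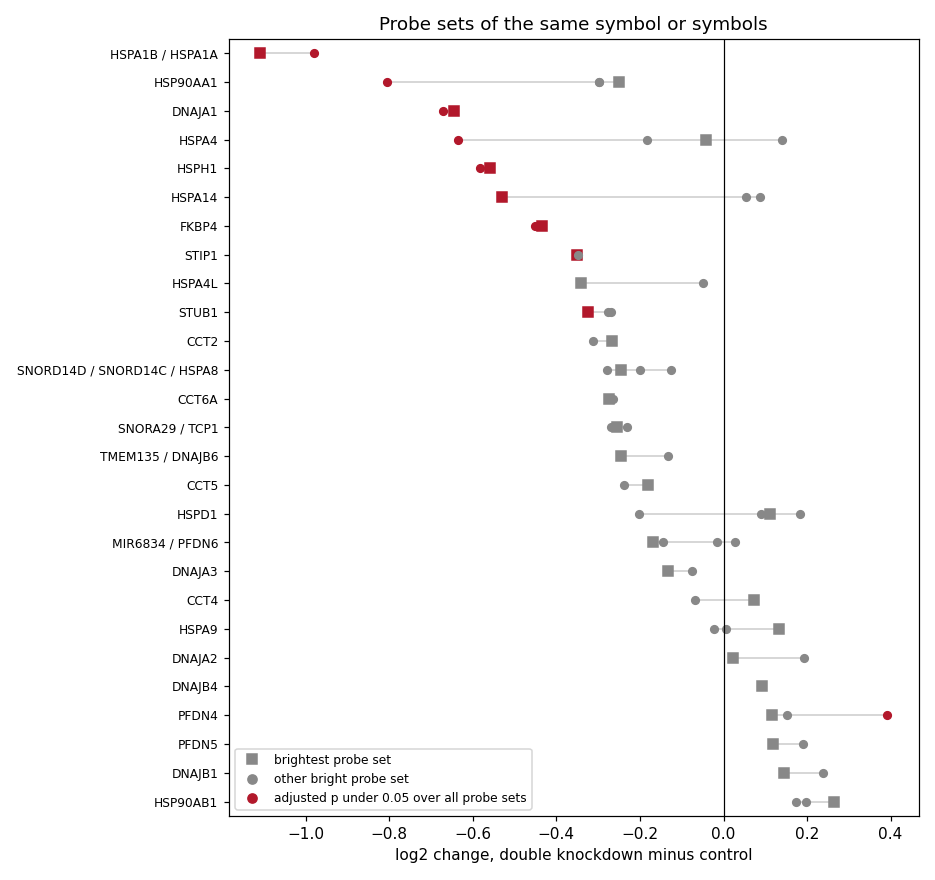
Log2 change (double knockdown minus control, horizontal axis) of every probe set above the brightness minimum, for symbols or symbol groups with more than 1 such probe set. Squares are the brightest probe set, and red marks an adjusted p under 0.05 over all probe sets. HSP90AA1 runs from -0.81 to -0.25, HSPA4 from -0.64 to 0.14 and HSPA14 from -0.53 to 0.09, while the probe sets of DNAJA1, HSPH1 and FKBP4 lie together.

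In all, 22 members had more than 1 bright probe set of their own, and for CCT4, HSPA14, HSPA4, HSPA9 and HSPD1 these had values of both signs.

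The small heat shock proteins hold unfolded proteins in solution without ATP. CRYAB, or alpha-B-crystallin, read 89.3 and 89.1 in the double knockdown and 150.1 and 146.9 in the control. The groups were well apart and the arrays of a group nearly equal (1.56-fold lower, or 1.66-fold without the added constant, log2 change -0.64 ± 0.08 SE, adjusted p = 0.00277). HSPB1, or HSP27, read 2629 and 2813 in the double knockdown and 3175 and 3399 in the control (log2 change -0.27 ± 0.09 SE, adjusted p = 0.0817). HSPB1 passed the threshold with an intensity-dependent prior, where its adjusted p was 0.0317.

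None of the 5 mitochondrial members was called, and their median log2 change was 0.08. HSPD1, the chaperonin HSP60, read 7376 and 7361 in the double knockdown and 6974 and 6674 in the control (log2 change 0.11 ± 0.08 SE, adjusted p = 0.434). HSPE1, its lid HSP10, read 2233 and 2224 in the double knockdown and 2144 and 2488 in the control, and the groups overlapped (log2 change -0.05). HSPA9, the mitochondrial HSP70 mortalin, read 2719 and 2748 in the double knockdown and 2461 and 2518 in the control (log2 change 0.13 ± 0.08 SE, adjusted p = 0.333). DNAJA3, its J-domain partner, read 554 and 532 in the double knockdown and 596 and 598 in the control (log2 change -0.13 ± 0.08 SE, adjusted p = 0.340). TRAP1, the mitochondrial HSP90, had a log2 change of 0.08 with overlapping groups.

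HSF1, the main heat shock factor, read 137.5 and 139.4 in the double knockdown and 167 and 140.5 in the control. The groups nearly touched (log2 change -0.13 ± 0.10 SE, adjusted p = 0.434). These are transcript levels of HSF1, whose activity was not measured.

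The subunits of TRiC had small negative values, and none of the 7 tested was called. Both double knockdown arrays lay below both control arrays for CCT2, CCT3, CCT5, CCT6A and CCT8, and above them for CCT4. That is 71.4% below and 14.3% above, against 29.3% and 28.1% of all genes. All 7 averaged at least 1000, and of all genes at that level 39.3% lay below and 30.5% above. CCT3 read 2789 and 2799.9 in the double knockdown and 3279 and 3572 in the control (log2 change -0.29 ± 0.09 SE, adjusted p = 0.0635). CCT6A read 1339.8 and 1311 in the double knockdown and 1587 and 1627 in the control (log2 change -0.28 ± 0.08 SE, adjusted p = 0.0634). CCT2 had a log2 change of -0.27 (adjusted p = 0.0745), CCT5 of -0.18, CCT7 of -0.08, CCT8 of -0.07 and CCT4 of 0.07.

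With an intensity-dependent prior CCT2, CCT3 and CCT6A were called lower, at adjusted p of 0.0251, 0.0216 and 0.0352, and these subunits were also called when probe sets of a gene were averaged or the constant was 64. Probe sets naming TCP1 together with the small nucleolar RNA SNORA29 had log2 changes of -0.26, -0.23 and -0.27, none called over all probe sets (adjusted p from 0.0817 to 0.128). Values below 0 were found for 6 of the 7 tested subunits (85.7%), against 52.0% of all genes. Among genes averaging at least 1000 the share was 52.7%. Whether the subunits moved together was not tested.

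Prefoldin held the single member that rose and another that fell. PFDN2, a subunit of the beta type, read 4088 and 4342 in the double knockdown and 2821 and 3122 in the control (1.42-fold higher, log2 change 0.50 ± 0.09 SE, adjusted p = 0.0118). VBP1, the subunit also called PFDN3, read 922 and 918 in the double knockdown and 1269.9 and 1232 in the control (1.35-fold lower, log2 change -0.44 ± 0.08 SE, adjusted p = 0.0133). Both calls were lost without double knockdown replicate 1 (adjusted p = 0.0621 for PFDN2 and 0.101 for VBP1) or 2 (0.112 and 0.115). PFDN1, PFDN4 and PFDN5 had log2 changes of -0.12, 0.12 and 0.12 with overlapping groups. A dim probe set of PFDN4 read 51.4 and 53.4 in the double knockdown and 36.0 and 36.3 in the control, with an adjusted p of 0.0246 over all probe sets that was lost whichever array was left out (0.0607 to 0.218). Probe sets naming PFDN6 with a microRNA ran from -0.17 to 0.03, and none was called.

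Other cytosolic cochaperones and HSP70 relatives, listed from textbook knowledge but with earlier results of these data known, were counted in the same fit. Of 39 tested, 9 fell (23.1%) and 2 rose (5.13%), with a median log2 change of -0.08, against 6.59% lower and 9.40% higher over all genes. HSPA6, a strictly inducible HSP70 that is nearly silent in unstressed cells, read 60.5 and 78.2 in the double knockdown and 26.5 and 23.6 in the control (2.07-fold higher, log2 change 1.05 ± 0.12 SE, adjusted p = 0.00137). Its other probe set read 21.8 and 19.0 in the double knockdown and 19.3 and 15.1 in the control, so the rise rests on 1 probe set of 2. HSPA13, an HSP70 relative of the ER although it stood in this list, read 352.5 and 353 in the double knockdown and 217 and 155 in the control (log2 change 0.89 ± 0.14 SE, adjusted p = 0.00660). BAG2, a nucleotide exchange factor that inhibits STUB1, is 1 of the 9 counted lower, but its 12.4 and 11.9 in the double knockdown lay below the brightness minimum and it passed the filter only through its 29.5 and 33.8 in the control, so its change has no exact size. FKBP5, the immunophilin related to FKBP4, read 2314 and 2329 in the double knockdown and 4019 and 3439 in the control (1.60-fold lower, log2 change -0.68 ± 0.10 SE, adjusted p = 0.00521). The calls of HSPA6, HSPA13 and FKBP5 held whichever array was left out. HSPA6 therefore differed in direction from the probe sets that name HSPA1A and HSPA1B, and the difference was not tested.

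Chaperones of the ER lumen, the counterparts of these families inside the secretory pathway, went the other way. This list too was chosen with earlier results of these data known. Of 14 tested, 10 rose (71.4%) and none fell, against 9.40% of all genes higher and 6.59% lower. Their median log2 change was 1.22. HSPA5, the HSP70 of the ER, had a log2 change of 1.92 ± 0.12 SE (adjusted p = 9.77e-05) and HSP90B1, its HSP90, of 1.02 ± 0.09 SE (adjusted p = 0.000550). Set beside them, the cytosolic HSP70 class had a median log2 change of -0.44 over 4 tested genes, the HSP90 system of -0.25 over 7, the HSP70 cochaperones of -0.21 over 7, TRiC of -0.18 over 7, prefoldin of 0.12 over 5 and the mitochondrial class of 0.08 over 5. All these values share the same 4 arrays, and no test was made between the classes.

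**Figure D5:**
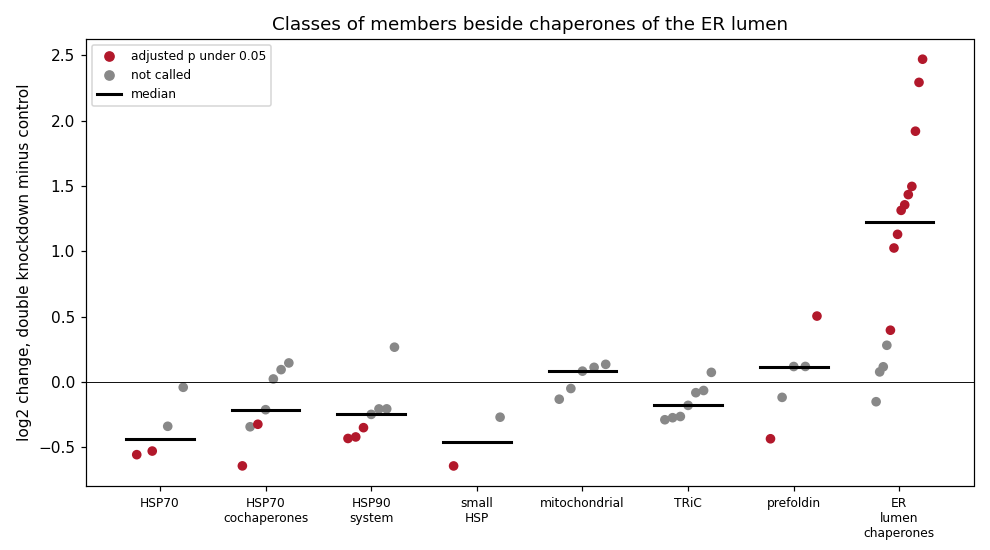
Log2 change (double knockdown minus control, vertical axis) of the tested members by class, with chaperones of the ER lumen at the right. Red points are called at an adjusted p under 0.05 and bars are medians. The ER lumen median is 1.22, and the medians of the member classes lie between -0.46 for the 2 small heat shock proteins and 0.12 for prefoldin.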

How the data were processed

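For every array the authors deposited a table of intensity values by probe set, whose range shows a linear scale. The sources used here do not give the summarisation or normalization behind them. Array medians lay between 14.5 and 14.7, and no further normalization was applied. Groups came from the sample titles. Of 54675 probe sets, 62 are controls, 41091 name 1 gene, 1801 several and 11721 none, and 41037 were matched by gene identifier to RefSeq symbols. Genes whose brightest probe set averaged at least 14.6, the median of all values, were tested, which left 12965. Values were log2(intensity + 16), tested with limma 3.58.1 in R 4.3.3 (all 4 arrays, no covariate, constant prior). All members are named. Full values are given for called members and for up to 2 per class with the smallest p. Array values of further members (HSPA4, HSPA4L, DNAJB6, BAG3, DNAJB1, HSP90AA1, HSP90AB1, HSPD1, HSPE1, HSPB8) were added after their values were seen. The members and lists were chosen with earlier results of these data known. On data simulated for this comparison, with 200 of 12965 genes changed, the test recovered 41% of changes of 0.5 on the log2 scale and 98% of changes of 1, and 7.33% of its calls were unchanged genes. The real fit called 2074 genes, far more than the 200 changed in the simulation, so these shares may not carry over to it. The number of arrays limits the precision. Alternatives were other constants, normalizations, filters, probe set rules, a variance prior, a replicate block and fits without 1 array. The test of single probe sets was added after seeing the data.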

Additional observations from a re-analysis of the deposited data

How the results depend on the processing

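Over the fits without 1 array, the genes called numbered 531 to 2003, the members lower 1 to 8 and the members higher 0 to 1. The low ends are those without a double knockdown array, where the lone array is assumed to vary like the control pair. Without probe sets of the types _x_at and _s_at the median log2 change was -0.13 over the 23 members left. That setting tests fewer members and also reads some from another probe set, as HSP90AA1 from 211969_at. Which of these moved the median was not tested. With an intensity-dependent prior 14 members were lower and 2 higher. The cause of the change with the prior was not tested. STIP1 and STUB1 lost their calls with a constant of 4, and CHORDC1 and HSPA14 when probe sets of a gene were averaged. All 10 called members kept their sign in every fit, and no called value reversed. The arrays' numbers are not known to pair them: with the replicate block 10 members were lower and 1 higher, 2505 genes were called, DNAJB6 passed the threshold (adjusted p = 0.0298), and the deviations of same-numbered arrays correlated at 0.24 across genes. The dim genes HSPB8 and BAG2 lie near the brightness minimum, so their levels are less certain than those of the bright members.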

Other observations

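Other genes of mitochondrial folding and proteolysis showed little difference. Of 14 tested, GRPEL2, a nucleotide exchange factor of the mitochondrial HSP70, rose and none fell, at a median log2 change of -0.04. That is 7.14% higher, near the 9.40% of all genes, and none lower, against 6.59%. GRPEL2 read 739 and 682 in the double knockdown and 488 and 479.7 in the control (1.45-fold higher, log2 change 0.54 ± 0.09 SE, adjusted p = 0.00719 by limma), and its call was lost without double knockdown replicate 1 (0.0772). The protease subunit AFG3L2 had a log2 change of -0.29 and the protease HTRA2 of 0.26, neither called. None of 8 TRiC cofactors and tubulin folding genes was called, and their median was -0.07.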
